A study of Homo sapiens with 3 samples.

Results

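The comparison was between the Ago2-bound miRNAs of Hep G2 cells transfected with a miR-497 mimic and those of non-treated (NT) Hep G2 cells. It used 2 of the 3 arrays of the series, chosen by their labels, and the array of cells given a miR-195 mimic was set beside them. Hep G2 is a human liver cancer line. The transfected cells received 5 nM of the double-stranded mimic with Lipofectamine RNAiMAX and were collected 24 hours later, whereas the NT cells were labelled non-treated and no control mimic was among these arrays. Ago2 was immunoprecipitated from each culture, and 10 ng of the bound RNA, carrying the dye Cy3, went onto 1 single-colour array per group, all 3 arrays on 1 slide. With 1 array per group, no difference below had a replicate check and none was tested. Repeat analyses are mentioned in the study's methods, but arrays beyond these 3 were not used here. What the mimic changed and what transfection or the single immunoprecipitate changed cannot be told apart.

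A miRNA is cut from a hairpin as a short duplex. One strand, the guide, is kept by an Argonaute protein such as Ago2 and directs it to messenger RNAs, mainly by pairing through the seed near its 5′ end. The other strand, the passenger (marked * in the array's names), is usually removed and degraded. A transfected mimic is a ready-made duplex that enters the same protein as the miRNAs the cell makes itself. The miR-497 gene lies beside that of miR-195 and both belong to the miR-15/miR-16 family, which is known for restraining the cell cycle. The profile addresses how much of the Ago2-bound miRNA signal the mimic held, and what became of the endogenous miRNAs.

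The sequences are RefSeq mature miRNAs (GRCh38.p14), matched by name, with the seed, bases 2 to 8, in capitals. Array names are given without the species prefix hsa-. The first set holds the strands of the mimic and the endogenous miRNAs of the same seed, because a shared 5′ end is the closest likeness among the miRNAs measured.
miR-497: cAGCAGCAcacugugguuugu
miR-497*: cAAACCACacugugguguuaga
miR-195: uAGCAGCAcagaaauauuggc
miR-15a: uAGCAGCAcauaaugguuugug
miR-15b: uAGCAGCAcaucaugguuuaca
miR-16: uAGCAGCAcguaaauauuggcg
Counted from the 5′ end, miR-497 was identical to miR-15a at 17 of 21 positions, to miR-15b at 15, to miR-195 at 12 and to miR-16 at 11. The first base differed in all 4, and the identical run from base 2 was 9 bases long for miR-195, miR-15a and miR-15b and 8 for miR-16. The guide and passenger strands of miR-497 had different seeds.

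The second set holds miR-21, the brightest miRNA on each array, and 2 of the families that stood highest relative to the array, whose members share a seed within each family.
miR-21: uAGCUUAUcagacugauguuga
miR-192: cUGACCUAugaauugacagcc
miR-215: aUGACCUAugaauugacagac
miR-130b: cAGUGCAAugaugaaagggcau
miR-301a: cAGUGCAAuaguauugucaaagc
miR-301b: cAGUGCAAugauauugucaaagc
miR-454: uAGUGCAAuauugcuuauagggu
miR-192 and miR-215 share the seed UGACCUA, and these 4 members of the miR-130/miR-301/miR-454 family share AGUGCAA.

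Signal is the background-subtracted spot intensity, averaged over the spots of a probe and summed over the probes of a miRNA, in the array's linear units. A miRNA was called detected where at least 1 of its probes had over 50% of its spots flagged well above background. Errors are SDs over spots within an array (spot SD), a technical spread. Each array carried 851 human miRNA names, of which 168 were detected on NT, 121 on the miR-497 array and 153 with the miR-195 mimic. No spot was saturated, and 0 of 88 viral names were detected on any array.

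Both strands of the mimic were detected in the Ago2 immunoprecipitate. No control immunoprecipitate was among these arrays, so RNA carried over without Ago2 was not measured. The miR-497 signal was 11.8 units (spot SD 4.90) on NT, where it was not detected, 45.4 (spot SD 7.10) with the miR-195 mimic and 7903 (spot SD 772) on the miR-497 array. It held 7.42% (spot SD 0.725) of all human miRNA signal on the miR-497 array and ranked 2 there, below miR-21. On NT its share was 0.00496%. Since probes differ in brightness per molecule, a share is a share of signal and not of molecules. The share also depended on the processing: it was 3.20% with normexp background correction, which adds an offset of 50 units to every spot, and 4.75% with the totals of the scanner software.

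The 2 probes of miR-497 gave the same picture at different brightness. Probe 1 averaged 1.38 units on NT, 2.69 with the miR-195 mimic and 1025 on the miR-497 array, where its spots ran from 903.8 to 1110. Probe 2 averaged 10.4 units on NT, 42.7 with the miR-195 mimic and 6877 on the miR-497 array, where its spots ran from 5890 to 8090. All 7 spots of probe 1 and all 8 of probe 2 were well above background on the miR-497 array, and the brightest spot of either probe on the other arrays was at 51.0 units. On NT 1 of 8 spots of probe 2 was well above background, and on the miR-195 array all 8 were.

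**Figure D1:**
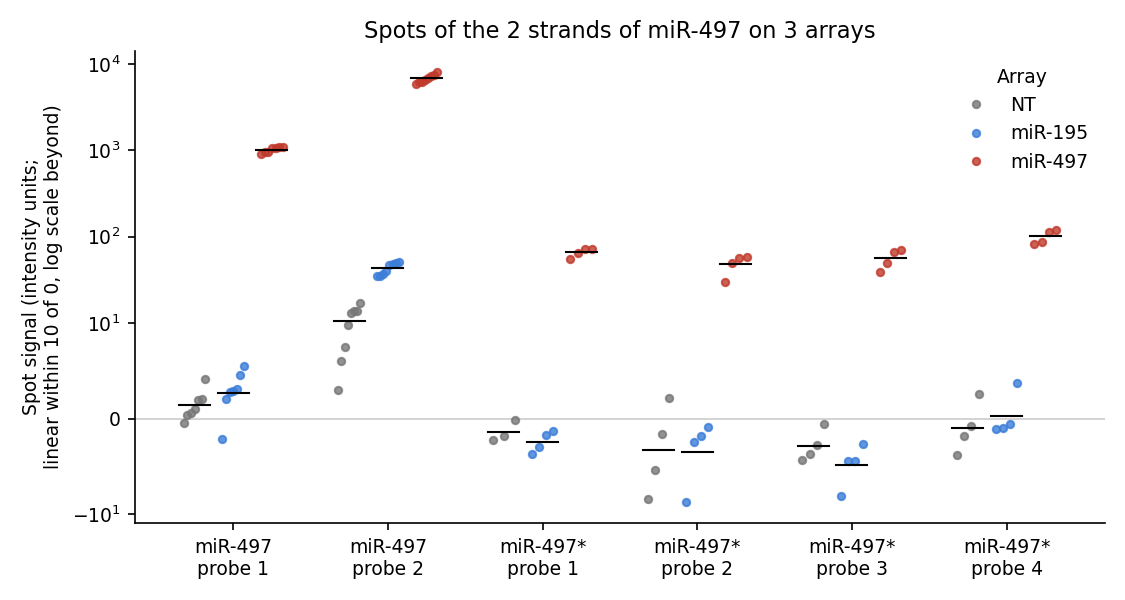
Signal of each spot of the 2 probes of miR-497 and the 4 probes of miR-497* on the NT, miR-195 and miR-497 arrays; the y axis is in intensity units, linear within 10 units of 0 and logarithmic beyond, and black bars are probe means. On the miR-497 array the spots of miR-497 lay between 903.8 and 8090 units and those of miR-497* between 29.4 and 120 units, and the highest spot of either strand on the NT array was at 16.8 units.

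The passenger strand, miR-497*, was also present. Its summed signal was -8.53 units (spot SD 5.69) on NT, -10.5 with the miR-195 mimic and 272 (spot SD 28.9) on the miR-497 array, a value below 0 meaning a spot no brighter than the estimated background. Its share on the miR-497 array was 0.255% (spot SD 0.0271), and 0.0816% with the software totals. Its 4 probes averaged 65.9, 48.3, 56.7 and 100.7 units there, with all 16 spots well above background, and none of their spots was well above background on the other arrays. All 4 probes therefore separated the miR-497 array from the others. Together both strands held 7.67% of human signal on the miR-497 array and 0.00138% on NT.

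Because miR-497 and miR-497* were not detected on NT, their increases are lower bounds, taken against the lowest signal of any detected miRNA on that array (11.1 units) or the strand's own signal where that was higher. For miR-497 the own signal, 11.8 units, was the higher. After each array was scaled as described below, miR-497 was by this rule at least 2102-fold higher (log2 11.04, and 9.39 before scaling) and miR-497* at least 76.7-fold higher (log2 6.26, and 4.61 before scaling) on the miR-497 array. They were the 2 miRNAs that became detected on the miR-497 array.

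On the miR-195 array the corresponding strands, from the same dose and time, held 14.6% (miR-195, spot SD 0.808) and 3.92% (miR-195*, spot SD 0.0840) of human signal. The passenger strand of miR-195 was not detected on NT (4.38 units) or on the miR-497 array (5.49 units). The strands were read by different probes and from 1 array each, so these shares stand side by side and the amounts loaded were not compared.

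**Figure D2:**
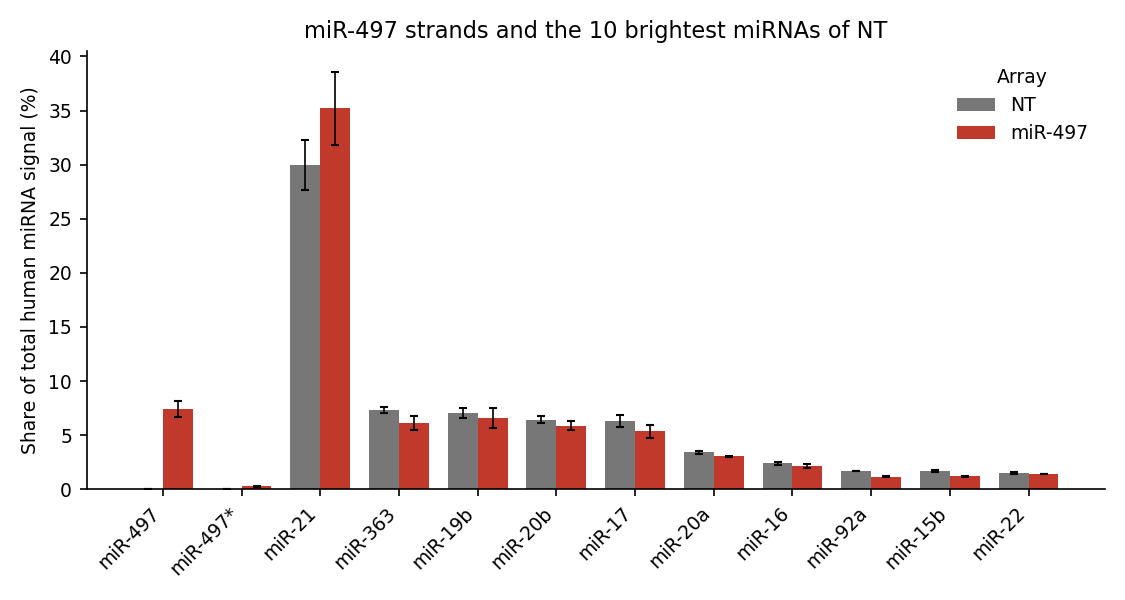
Share of total human miRNA signal in percent for both miR-497 strands and the 10 brightest miRNAs of NT, on the NT and miR-497 arrays; bars start at 0, error bars are the spot SD, and the NT value of miR-497*, which was below 0, is drawn at 0. On the miR-497 array miR-497 held 7.42% and miR-21 35.2%, against 0.00496% and 30.0% on NT.

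The endogenous miRNAs were dimmer almost throughout. Total human signal was 237956 units on NT, 263272 with the miR-195 mimic and 106523 on the miR-497 array, 44.8% of NT. The miR-195 total includes the strands of its own mimic, which held 14.6% (miR-195) and 3.92% (miR-195*) of it. Without the strands of miR-497 the total of the miR-497 array was 98349 units, 41.3% of NT. Without miR-21 as well it was 60833 units, 36.5% of NT. Of the 119 endogenous miRNAs detected on both arrays, 117 (98.3%) were dimmer on the miR-497 array, with a median log2 difference of -1.62, or 32.6% of NT. The parts of fewer molecules in the immunoprecipitate and of a lower labelling yield in this difference were not tested. Synthetic RNAs added before labelling differed from NT by -0.53 log2 units (miR-497) and -0.44 (miR-195), and those added at hybridisation by -0.22 and -0.19. With each array scaled to the synthetic RNAs added before labelling, the median log2 difference between miR-497 and NT was -1.09.

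Differences are therefore given relative to the array. Each array was divided by the 75th percentile of the 183 probes detected on all 3 arrays, which was 827 units on NT, 778 with the miR-195 mimic and 263 on the miR-497 array. On this scale, called scaled, a miRNA at 0 was dimmer by the same 3.14-fold as the percentile, and one above 0 was dimmer by less or not at all. Scaled differences had a median of 0.04 log2 units, an SD of 0.42 and 10th and 90th percentiles of -0.36 and 0.36. The median spot SD of a difference was 0.18. The order of the miRNAs was largely kept: across the 119 miRNAs the log2 signals of NT and miR-497, from the same probes on both arrays, gave 0.98 for both Pearson's r and Spearman's rho, as a description.

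**Figure D3:**
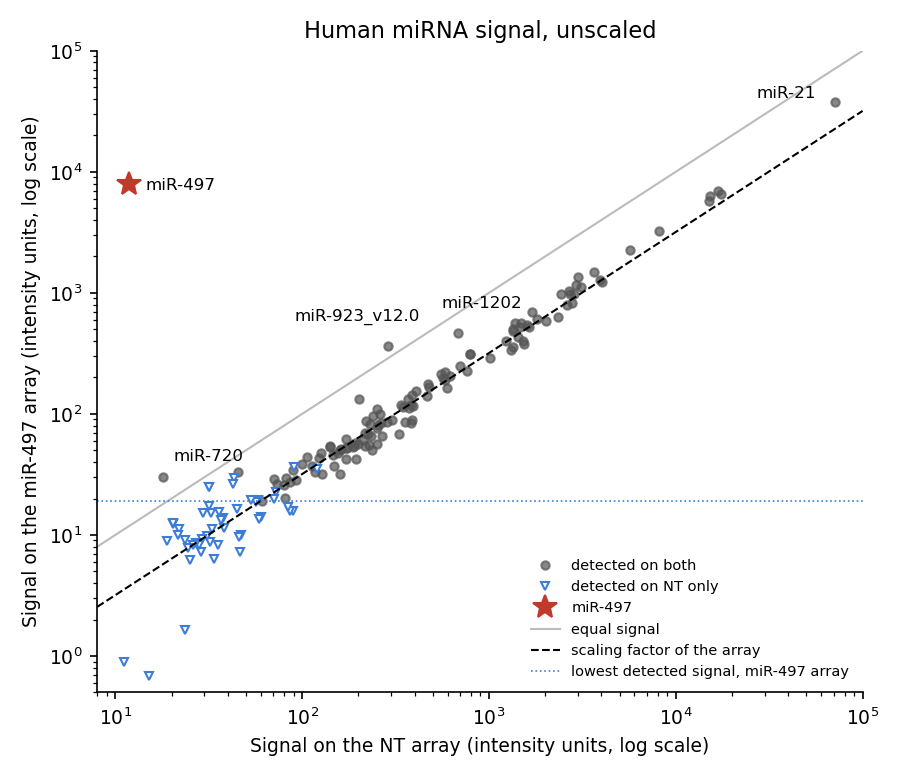
Unscaled signal on the miR-497 array against NT, both in intensity units on log axes, for miRNAs detected on both arrays (filled), on NT only (triangles; miR-652, at -1.31 units on the miR-497 array, cannot be drawn) and for miR-497 (star, not detected on NT). Of 119 filled points 117 lay under the line of equal signal, and most followed the dashed line that marks the 3.14-fold scaling factor.

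Of the 119, 114 stayed within 2-fold of the array after scaling. At least 2-fold above it were 5 (4.20%), and at least 2-fold below it 0 (0.00%). All 119 had to be detected on the dimmer miR-497 array, so dim miRNAs that fell further could not enter the lower count. These counts followed the scaling: without it 0 were at least 2-fold higher and 113 at least 2-fold lower, with the labelling spike-ins 1 and 67, and with normexp correction 11 stood at least 2-fold above the array. With the software totals 4 of the 5 were no longer 2-fold above it, miR-720 at 0.38, miR-195 at 0.54, miR-1225-5p at 0.75 and miR-1202 at 0.79, and miR-923 was at 1.69. Of the 5, miR-720 and miR-923 are entries since understood as fragments of a transfer RNA and a ribosomal RNA. The signal of miR-720 was 18.0 units on NT, 20.9 with the miR-195 mimic and 29.9 on the miR-497 array, a scaled difference of 2.39 (spot SD 0.28). The signal of miR-923 (listed as miR-923_v12.0) was 287 units on NT, 476 with the miR-195 mimic and 363 on the miR-497 array, a scaled difference of 1.99 (spot SD 0.18). These were the only 2 of the 119 whose signal was higher on the miR-497 array before scaling, by 0.74 and 0.34 log2 units. For miR-720 only probe 2 was detected, with spots from 13.5 to 21.5 units on NT and from 24.5 to 28.9 on the miR-497 array. These spots are repeats within 1 array each, and lie near the lowest detected signals, 11.1 units on NT and 19.1 on the miR-497 array.

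The other 3 miRNAs at least 2-fold above the array were dimmer than on NT before scaling. The signal of miR-1202 was 684 units on NT, 1615 with the miR-195 mimic and 463 on the miR-497 array, a scaled difference of 1.09 (spot SD 0.14) and an unscaled one of -0.56. The signal of miR-1225-5p, which is spliced out as a short intron (a mirtron), was 201 units on NT, 550 with the miR-195 mimic and 132 on the miR-497 array, with a scaled difference of 1.05 (spot SD 0.11) and an unscaled one of -0.60. Both were highest on the miR-195 array, where their scaled differences from NT were 1.33 and 1.54. Sequence was at hand for both, and each had a GC content above 60%, as did 5 of the 99 measured miRNAs with a sequence. Of these 5, 2 stood at least 2-fold above and 0 at least 2-fold below the array, beside 1 and 0 of the other 94. No sequence was at hand for miR-720 and miR-923. Of the 14 miRNAs of such GC content detected on NT, 9 were not detected on the miR-497 array, beside 34 of 128 with a GC content below 60% and 49 of 168 (29.2%) over all names. Over the 99 measured miRNAs with a sequence, Pearson's r between the scaled difference and GC content was 0.02 and Spearman's rho -0.15, as a description over probes that share an array.

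Endogenous miR-195, the cluster neighbour of miR-497, was the remaining one. Its signal was 45.3 units (spot SD 4.95) on NT and 32.8 (spot SD 7.78) on the miR-497 array, compared with 38522 on the array of its own mimic. The scaled difference of the summed signal was 1.19 (spot SD 0.38). Probe 1, the only one detected on NT or the miR-497 array, was at 33.5 units on NT and 25.8 on the miR-497 array, a scaled difference of 1.27, and probe 2 was at 11.8 and 7.02 units. The unscaled difference was -0.47, so the signal was lower than on NT, by less than the array as a whole. It shares a 9-base run with miR-497, and the part of cross-hybridisation in this value was not tested.

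miR-21, a miRNA raised in many cancers, carried the largest endogenous share. Its signal was 71328 units (spot SD 5548) on NT, 53636 with the miR-195 mimic and 37516 (spot SD 3598) on the miR-497 array. Its scaled difference was 0.72 (spot SD 0.18), and its share of human signal went from 30.0% on NT to 35.2% on the miR-497 array, or 38.1% of the signal left when the miR-497 strands are taken out. On the miR-195 array the share of miR-21 in all human signal was 20.4% and its scaled difference -0.32. That signal includes miR-195 and miR-195*, which held 14.6% and 3.92% of it. The 2 probes of miR-21 were not alike on the miR-497 array. Probe 1 went from 50847 to 29598 units, a scaled difference of 0.87, whereas probe 2 went from 20481 to 7918, a scaled difference of 0.28 with spots that spread from 3646 to 10583. With quantile normalization, which gives the brightest miRNA of each array the same rank value, the scaled difference of miR-21 was 0.00.

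The next miRNAs after miR-21 in scaled difference were miR-192, described with its family, and miR-483-5p, which lies in an intron of the growth factor gene IGF2. The signal of miR-483-5p was 251 units on NT, 284 with the miR-195 mimic and 110 on the miR-497 array, a scaled difference of 0.46 (spot SD 0.21). Its probes stood at 0.20 and 0.57, both above 0.

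The 9 miRNAs that followed miR-21 in brightness on NT were all dimmer on the miR-497 array, and 8 of them stood above 0 after scaling. Most belong to the miR-17/miR-92 cluster and its X-chromosome copy, which promote proliferation. miR-363 went from 17456 to 6521 units (scaled 0.23), miR-19b from 16778 to 6990 (0.39) and miR-20b from 15278 to 6265 (0.37). miR-17 went from 14978 to 5708 units (0.26), miR-20a from 8110 to 3239 (0.33) and miR-16 from 5713 to 2278 (0.32). These values lay close together, between 0.23 and 0.39. The last 3 were miR-92a, from 4037 to 1222 units (-0.07), miR-15b, from 3937 to 1271 (0.02), and miR-22, from 3659 to 1490 (0.36). The probes of miR-19b, miR-17 and miR-15b did not all lie on the same side of the array. Of endogenous signal, without the miR-497 strands, these 9 held 37.8% on NT and 35.6% on the miR-497 array, whereas miR-21 alone held 30.0% and 38.1%. Of all human signal the 10 together held 67.8% and 68.1%.

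Brightness on NT and the scaled difference went together only loosely. Of the 21 measured miRNAs above 2000 units on NT, 16 stood above 0, with a median of 0.26, beside 66 of 119 (55.5%) and 0.04 over all measured miRNAs. The 63 miRNAs between 200 and 2000 units had a median of 0.01. Below 200 units only 35 of the 84 detected on NT were measured, with a median of -0.01. Across all 119, Pearson's r between the scaled difference and the log2 NT signal was 0.04 and Spearman's rho 0.18, as a description over miRNAs of the same pair of arrays. The NT signal also enters the scaled difference. With the mean log2 signal of both arrays in place of NT, r was 0.14 and rho 0.26.

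Among the 119 miRNAs detected on both arrays, the lowest scaled differences were modest. All 8 of the lowest with probes moving the same way were dim on the miR-497 array, at 31.8 to 89.1 units. Of these, 3 were passenger strands. miR-21* went from 160 to 31.8 units (scaled -0.68, spot SD 0.36), miR-17* from 328 to 68.7 (-0.61, spot SD 0.33) and miR-92a-1* from 195.4 to 42.4 (-0.55, spot SD 0.26). Their guide strands, miR-21, miR-17 and miR-92a, stood at 0.72, 0.26 and -0.07. On the miR-195 array the same passenger strands were at -0.64, -0.12 and -0.80. The other 5 were miR-486-5p, a miRNA abundant in red blood cells, from 237 to 50.6 units (-0.57, spot SD 0.16), miR-324-3p from 382 to 83.9 (-0.53, spot SD 0.17), miR-135b from 251 to 56.5 (-0.50, spot SD 0.44), miR-374a from 386 to 89.1 (-0.46, spot SD 0.20) and miR-7 from 356 to 85.9 (-0.40, spot SD 0.17). For miR-21*, miR-17*, miR-486-5p, miR-92a-1*, miR-324-3p and miR-7 only 1 probe was detected on both arrays. These positions below the array depended on the background treatment: with normexp correction all 8 were above 0, between 0.14 and 0.82.

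Of 23 passenger strands detected on NT, 12 were still detected on the miR-497 array and 11 were not, beside 49 of 168 (29.2%) not detected over all names. Of the 12, 4 stood above 0, with a median of -0.06 and a range of -0.68 to 0.28. The 107 measured names without * had a median of 0.09, with 62 above 0.

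Families listed as sharing a seed moved little against the array. Of 21 families with at least 2 measured members, 6 had a median of at least 0.25 above it and 1 at least 0.25 below, on a scale where 32 of 119 single miRNAs (26.9%) were at least 0.25 higher and 19 (16.0%) at least 0.25 lower. All 21 medians were negative before scaling, from -1.96 to -1.25. The median spot SD over all differences, 0.18, was of the same order as most family medians. The number of families above the array followed the scaling: the 6 became 2 with scaling to the median, 1 with quantile normalization and 0 with spike-in scaling.

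The miR-192/miR-215 family, which is enriched in liver and gut, stood highest, with a median of 0.40. miR-192 went from 3003 to 1352 units (0.50, spot SD 0.20) and miR-215 from 787 to 311 (0.31, spot SD 0.12). miR-194, which is made from the same transcripts, went from 596 to 165 units and stood at -0.20. On the miR-195 array the family median was 0.25. The pair miR-28-5p and miR-151-5p followed at 0.27 and 0.36 (median 0.32, and 0.13 on the miR-195 array). This pair was grouped by name, without sequences to check a shared seed, and is counted among the families above the array.

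In the miR-130/miR-301/miR-454 family all 5 members stood above 0 and 4 of them by at least 0.25. miR-130b, the brightest, went from 2436 to 988 units (0.35, spot SD 0.12), and miR-301a from 571 to 197 (0.12, spot SD 0.12). miR-130a, miR-301b and miR-454, at 70.8, 142 and 89.4 units on NT, stood at 0.35, 0.27 and 0.27. The family median was 0.27, and 0.24 on the miR-195 array. The miR-29 family, known for targeting collagens, had the same median with members apart: miR-29a at 0.32, miR-29c at 0.27 and miR-29b at -0.23.

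The families of the miR-17/miR-92 cluster were the largest by signal, except for the miR-18 family, which held 1.30% of human signal on NT. The miR-17/miR-20/miR-93/miR-106 family held 18.0% of human signal on NT and 15.6% on the miR-497 array, with 4 of 5 members above 0, a median of 0.26 and miR-93 at -0.31. The miR-19 family (miR-19a at 0.11, miR-19b at 0.39) had a median of 0.25, the miR-25/miR-32/miR-92/miR-363 family 0.18 and the miR-18 family -0.08. On the miR-195 array these 4 medians were 0.05, -0.11, -0.12 and -0.15 in the same order.

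Of the 21 families, the 4 with the lowest medians were those of miR-374 (median -0.31), miR-193 (-0.20), miR-26 (-0.14) and miR-27 (-0.14). miR-374a and miR-374b stood at -0.46 and -0.16, miR-193b and miR-193a-3p at -0.39 and -0.02, and miR-26a and miR-26b at -0.39 and 0.10. Both members of the miR-27 family were alike, miR-27a at -0.14 (1008 to 291 units) and miR-27b at -0.14 (2024 to 586 units). On the miR-195 array the medians of the 4 families were -0.68, 0.13, -0.11 and -0.26. With normexp correction the medians of miR-374, miR-193 and miR-26 were above 0, at 0.40, 0.75 and 0.22.

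The endogenous miRNAs with the seed of the mimic stood apart from each other. miR-195, given above, was at 1.19 and is left out of the family median as a transfected miRNA of the series. miR-15a went from 1433 to 436 units (-0.07, spot SD 0.16), miR-15b from 3937 to 1271 (0.02, spot SD 0.10) and miR-16 from 5713 to 2278 (0.32, spot SD 0.18), a median of 0.02 over these 3. Together they held 4.66% of human signal on NT and 3.74% on the miR-497 array, where miR-497 itself held 7.42%. miR-103 and miR-107, whose seed GCAGCAU begins with the last bases of AGCAGCA, stood at -0.10 and 0.19 (median 0.04), and the let-7 family at a median of 0.07.

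**Figure D4:**
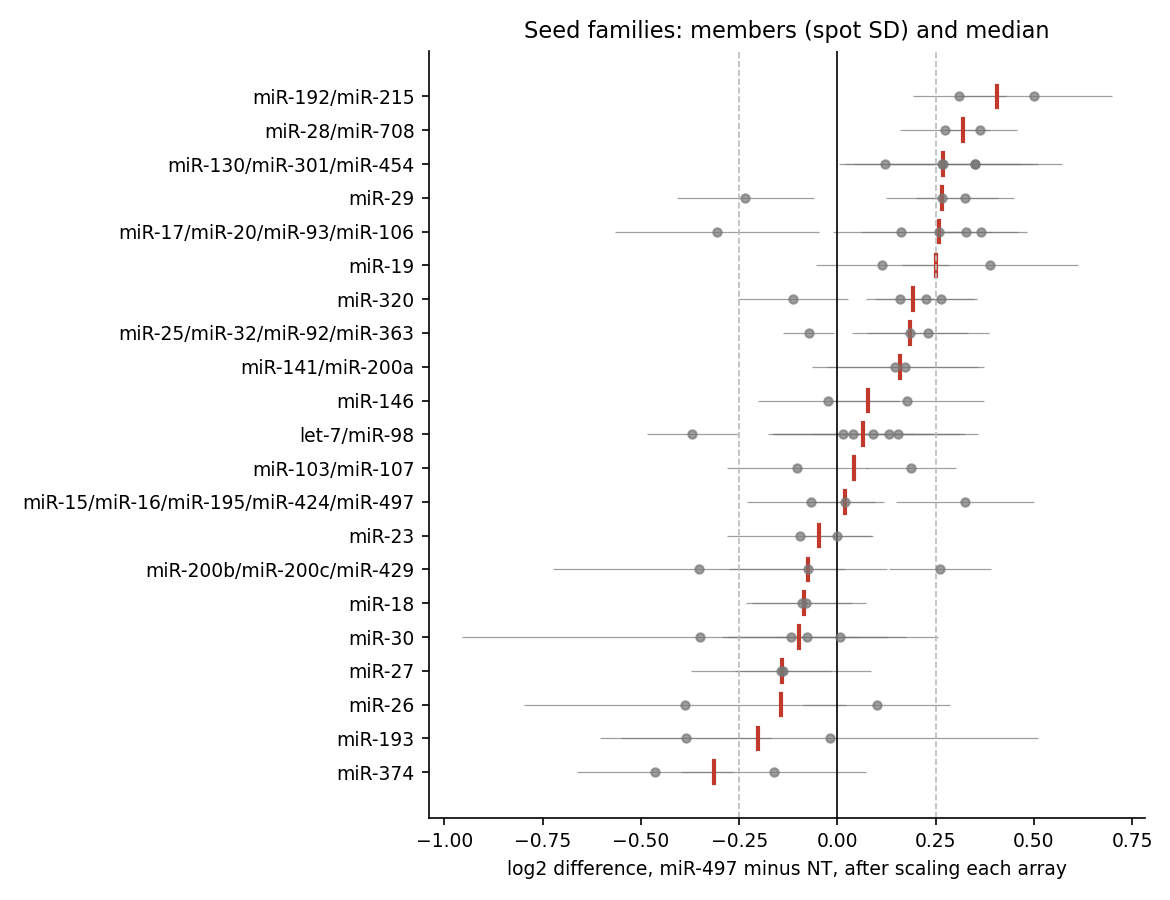
Scaled log2 difference between the miR-497 and NT arrays for the members (points, with the spot SD as error bars) of 21 seed families with at least 2 measured members, ordered by the family median (red bar; the miR-15 row leaves out miR-195 and miR-497); dashed lines mark 0.25 on either side of 0. The medians run from -0.31 for miR-374 to 0.40 for miR-192/miR-215, and in 12 of the 21 families the members lie on both sides of 0.

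Detection was lost for 49 of the 168 miRNAs detected on NT (29.2%). All 49 were dimmer in their own signal on the miR-497 array, as were 117 of the 119 that were kept. Choosing names by detection on NT alone favours such a difference. The 49 lay at the dim end of NT, from 11.1 to 120 units with a median of 32.8. The median of the 119 kept was 356. They had held 0.852% of human signal on NT. For 45 of the 49 only 1 probe had been well above background on NT, and the same was true of 15 of the 119 that were kept. Of the 49, 30 were detected on the miR-195 array and 19 were not, beside 20 of all 168 not detected there. The scaling percentile of that array was 778 units, and that of NT 827.

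Losses followed NT brightness. The lowest detected signal on the miR-497 array was 19.1 units, which a miRNA of 60.1 units on NT would reach if it dimmed with the array. Of 43 miRNAs below that level 41 were lost, and of 125 at or above it 8 were lost and 117 kept. A lower bound on each decrease came from setting the miR-497 signal to the higher of 19.1 units and the miRNA's own. After scaling 7 of the 49 had a bound below the array, and before it 17 had one of 2-fold or more. Of the 7, only miR-99b (-0.57, spot SD 0.35) and miR-423-5p (-0.53, spot SD 0.41) had a bound larger than the spot SD. The smallest was -0.01, for miR-455-5p (spot SD 0.48). For the rest of the 49 the bound does not say whether the loss exceeded the drop of the array. Taken as they stand, the undetected signals lay on both sides of the array. For example, miR-638 went from 31.9 to 24.9 units (scaled 1.29, spot SD 0.38). By contrast, miR-532-3p went from 23.6 to 1.63 units (scaled -2.21, spot SD 3.47).

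The brightest losses on NT were miR-32, from 120 to 35.3 units, miR-545, from 90.6 to 36.3, and miR-99b, from 89.4 to 15.8. The next were miR-423-5p, from 86.6 to 15.8 units, and miR-363*, from 84.0 to 17.2 (28.4 on the miR-195 array). As bounds on the log2 difference, miR-99b and miR-423-5p were at -2.22 and -2.18 or lower before scaling, and at -0.57 and -0.53 or lower after it. The miRNAs lost next in brightness were miR-148a (72.5 units on NT), miR-501-5p (70.9), miR-455-5p (60.5), miR-574-3p (58.7) and miR-766 (57.7), and 8 of these 10 were at or above the level of 60.1 units. The relatives of miR-32, a member of the miR-25/miR-32/miR-92/miR-363 family, remained detected, with miR-25 at 0.18, miR-92a at -0.07 and miR-363 at 0.23 after scaling.

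**Figure D5:**
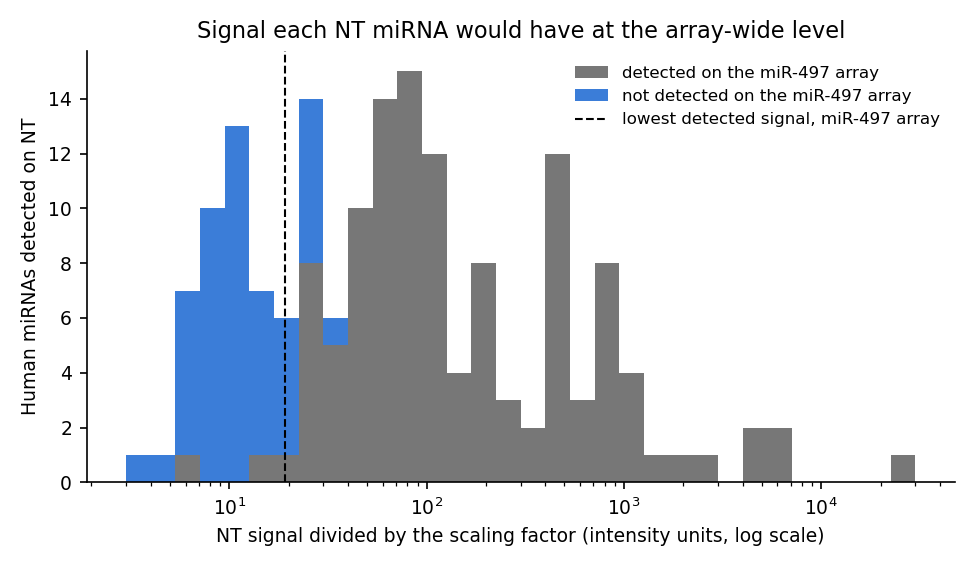
Human miRNAs detected on NT by the signal each would have on the miR-497 array if it were dimmer by the 3.14-fold scaling factor (x axis, intensity units, log scale; bars stack counts of miRNAs), with those detected on the miR-497 array in grey and those not in blue. Of the 49 that were not detected, 41 lay left of the lowest detected signal (19.1 units, dashed).

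The cell label was checked against marker miRNAs. Of 5 hepatocyte markers, miR-192, miR-194 and miR-215 were detected on every array, and miR-122, the defining miRNA of adult liver, and miR-885-5p were on none, with miR-122 at 3.62 units on NT and 5.62 on the miR-497 array. Of 6 blood markers miR-142-3p and miR-142-5p were detected on every array, at 1521 and 191 units on NT and 397 and 57.1 on the miR-497 array, whereas miR-451, miR-144, miR-223 and miR-150 were on none. The summed signal of the blood markers was 1730 units on NT, 1450 with the miR-195 mimic and 456 on the miR-497 array. None of 4 muscle markers was detected. Of 4 neural markers miR-128 was detected on every array, and miR-219-5p on NT at 26.0 units. Of 5 stromal and endothelial markers miR-199a-3p was detected on NT, at 32.8 units, and none on the transfected arrays. The part of other cell types in these results was not tested.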

How the data were processed

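Ago2-bound RNA was measured on 3 Agilent human miRNA arrays, 1 each for NT, miR-195 and miR-497, grouped by label. As deposited, each scanner file gives intensity per spot (Agilent Feature Extraction 10.7.1.1 in the header), background-subtracted and detrended within each array and not scaled between arrays. The authors also deposited a table of log2 values (GeneSpring, 75th percentile shift), used here as an alternative. The headers name hg19, and the sequence table is of GRCh38.p14, so coordinates are not given.

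Outlier spots were left out (6.98% on NT, 6.40% on the miR-497 array). Spots were averaged per probe and probe means summed per human miRNA name (Python 3.11.15, pandas 2.3.3; normexp in limma 3.58.1, R 4.3.3). Spot SDs were added in quadrature. The number of arrays, 1 per group, limits the precision, and no test across arrays was possible. The summary was tested on simulated data, with spots drawn around the NT means, a uniform dimming and known changes in bright miRNAs. That test does not address the choice of scaling or background. Seed families and lists were written by hand, without the transfected strands. The miR-28/miR-708 list has no sequence at hand and was kept by name, so a shared seed was not checked for it.

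The miRNAs named were the strands of both mimics, the 10 brightest on NT, the 8 highest and 8 lowest scaled differences whose measured probes moved the same way, the 10 brightest losses, up to 5 gains, and the members of the 4 highest and 4 lowest families. Others were named as family relatives, seed relatives or markers. All members, lists and families were chosen with earlier results of these data known. Of the 119 measured and 49 lost miRNAs, 99 and 43 had a sequence. The alternatives covered scaling, background, spots, summary, detection and the deposited table.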

Additional observations from a re-analysis of the deposited data

How the results depend on the processing

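No paired analysis was possible because each group held 1 array, and no block for slide or scan could be fitted, since all 3 arrays shared both. With 1 array per group no array could be left out. The scaling moved most values: relative to the 75th percentile over detected probes, the median of all measured miRNAs shifted by -1.38 when the percentile covered every non-control probe, -1.65 without scaling, -1.13 with the labelling spike-ins, -0.16 after quantile normalization and -0.04 after scaling to the median. The counts of miRNAs at least 2-fold above and below the array (5 and 0) became 1 and 110, 0 and 113, and 1 and 67 under the first 3 of these, and 3 above with quantile normalization. Families at least 0.25 above and below (6 and 1) became 0 and 21 under each of the first 3, 1 and 7 with quantile normalization, and 2 above with median scaling.

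Under the same first 3 settings miR-1202 reversed to -0.29, -0.56 and -0.036, miR-1225-5p to -0.33, -0.60 and -0.076, and miR-195 to -0.20 and -0.47 under the first 2. The medians of miR-192/miR-215 reversed to -0.98, -1.25 and -0.72, of miR-28/miR-708 to -1.06, -1.33 and -0.81, of miR-130/miR-301/miR-454 to -1.11, -1.38 and -0.86, and of miR-29 to -1.12, -1.39 and -0.86.

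With normexp correction the shares of miR-497 and miR-497* were 3.20% and 0.205%, the whole-array difference -0.99, the count at least 2-fold above 11, the families 10 above and 0 below, and the miR-374 median 0.40. With the software total the shares were 4.75% and 0.0816%, the count above 16, the families 1 above and 6 below, and the medians of miR-130/miR-301/miR-454 and miR-29 reversed to -0.18 and -0.032, while miR-21* and miR-17* went to 9.23 and 4.82 and miR-7 to 0.31. The brightest probe alone gave miR-497* 0.119%. In the deposited table the whole-array difference was -1.42, with 13 miRNAs above and 102 below, and 0 families above and 22 below. Requiring 50 units on NT, all probes or all spots detected left 3 miRNAs above in each case, and summing family members gave 2 families below. The cause of these moves was not tested. Leaving out miR-195, chosen after seeing the data, left 4 of 118 miRNAs above.

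Losses to detection numbered 51 with all spots, 35 with all probes and 54 in the deposited table, and gains 3, 2 and 2. Of the summary values, 48 stayed the same under their alternatives and 37 moved. Of the values of single miRNAs and families, 106 stayed, 95 moved and 23 were counted as reversed. The count of reversed values does not hold every change of sign. Among those counted as moved, miR-21 was at -0.66, miR-192 at -0.88 and miR-483-5p at -0.93 with the percentile over every non-control probe. With the labelling spike-ins they were at -0.40, -0.63 and -0.67. Among those counted as stayed, the miR-193 median was 0.16 with the software total.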
